A study of Homo sapiens with 24 samples.

Results

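Cells that had received a control antisense oligonucleotide (ASO-Ctrl) were compared with cells that had received a control small interfering RNA (siCtrl), 3 libraries each, 6 of the 24 libraries of the series. The cells were of the line SBC-3, established from a human small cell lung cancer, and the labels give the genotype of both groups as WT. Both reagents were used at 10 nM with the same lipid reagent (Lipofectamine RNAiMAX, added as the cells were plated), and poly(A) RNA was taken after 72 h. No group without a reagent is among the samples used here, so the 2 controls could be compared only with each other and with the other reagents. These were siRNAs against SFPQ (siSFPQ-2 and siSFPQ-3) and NONO (siNONO-3 and siNONO-4), and ASO-NEAT1-1047 and ASO-NEAT1-1473 against the noncoding RNA NEAT1, 3 libraries each at the same dose and time. Each kind of control was a single reagent, so the kind of reagent, its particular sequence and any difference in handling between the siRNA and ASO samples cannot be told apart. The labels do not say whether replicates are separate cultures; if they are not, the p-values cover technical variation only. In bulk RNA, fewer cells with a transcript and less of it per cell cannot be told apart.

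An siRNA is a short double-stranded RNA of which 1 strand is loaded into an Argonaute protein and guides the silencing of matching mRNAs. Through the bases at the start of that strand, the seed, it can also lower mRNAs that it was not designed to match. An antisense oligonucleotide is a single strand that pairs with its target RNA, and where it holds a stretch of DNA it directs cleavage of that RNA by RNase H1. Many ASOs also bind proteins, and foreign nucleic acids of either kind can be sensed by innate immune receptors. A control reagent is meant to have no target in the cell, and it serves as the baseline against which a knockdown is read. Neither the sequences nor the chemistry of these reagents were at hand.

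Total counts ran from 9999025 to 13525528 in siCtrl and from 9717221 to 14810746 in ASO-Ctrl. The mitochondrially encoded share of counts was 8.21% ± 0.757 (SD, n = 3) in siCtrl and 8.65% ± 0.726 (SD, n = 3) in ASO-Ctrl (exact 2-sided permutation p = 0.5, where the smallest p of 3 libraries against 3 is 0.1). Replicate 3 had the highest share in each group, 9.07% and 9.49%. Of 9 markers of small cell lung cancer, INSM1, NCAM1 and UCHL1 had no read in the 6 libraries, CHGA had 6 reads and POU2F3 10. The list summed to 20.1 to 28.1 CPM (read counts relative to the TMM-scaled library size) in siCtrl and 22.4 to 30.2 CPM in ASO-Ctrl, mostly from SYP and NEUROD1. Marker lists of blood, endothelial and fibroblast cells each summed to at most 0.894 CPM. Alveolar markers summed to 3.49 to 6.05 CPM in siCtrl and 4.44 to 4.80 CPM in ASO-Ctrl, and liver markers to 2.32 to 5.39 CPM and 3.65 to 7.87 CPM. The 3 squamous or basal markers summed to 64.4 to 74.6 CPM in siCtrl and 65.0 to 79.4 CPM in ASO-Ctrl, all of it TP63, with KRT5 and KRT14 at 0 reads. The RNAs targeted elsewhere in the series did not differ beyond the replicate spread between the controls. SFPQ was at 1223 ± 40.2 CPM (SD, n = 3) and 1179 ± 57.1 CPM (SD, n = 3), with a 95% interval of the log2 difference of -0.27 to 0.17. NEAT1 was at 268, 231 and 429 CPM in siCtrl and 216, 289 and 387 CPM in ASO-Ctrl, with an interval of -0.56 to 0.44.

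Few genes separated the control reagents. With all libraries most of them were lower with the ASO, but without ASO-Ctrl replicate 2 the calls were split 11 higher and 10 lower. Of 15869 genes tested with edgeR's quasi-likelihood test in one fit of all 24 libraries, 72 (0.454%) had a Benjamini-Hochberg adjusted p under 0.05, and these are the genes said to have risen or fallen. Of these, 53 (0.334%) fell with ASO-Ctrl relative to siCtrl and 19 (0.12%) rose. Falls ran from -0.32 to -2.34 on the log2 scale (median -0.58), which left 19.7% to 80.4% of the siCtrl level. Rises ran from 0.31 to 1.87 (median 0.57). A total of 10 falls and 3 rises reached a 2-fold difference, and the median over all genes tested was -0.01. In all 72 genes the 3 libraries of one control lay outside the range of the other, which was so for 7.68% of all tested genes with ASO-Ctrl below and 5.86% with ASO-Ctrl above. Of the 72 genes, 25 overlap another annotated gene and 5 had a mean under 5 CPM in both controls. These 5 include all 3 rises of 2-fold or more, and so the largest rise. The called genes are described by textbook role; these roles were not tested as groups, and called genes outside the 15 largest in each direction were picked for mention after their values were seen.

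The replicate number mattered for how many genes were called. With that number as a block in the same fit, 351 genes (2.21%) were called, 108 higher (0.681%) and 243 lower (1.53%). The 72 genes were all among them, with the same sign, and 279 were added. Leaving out single libraries lowered the count without the block to between 21 (without ASO-Ctrl replicate 2) and 53 (without ASO-Ctrl replicate 3). It was 24 without siCtrl replicate 3, 33 without ASO-Ctrl replicate 1, 42 without siCtrl replicate 1 and 52 without siCtrl replicate 2. Falls outnumbered rises in 5 of these 6 fits (16 against 8 at the lowest total), and not in that without ASO-Ctrl replicate 2. Of 34 called genes followed through these 6 fits, 10 passed in all of them: GPRIN3, SORL1 and PPP2R1B among the falls, and CSGALNACT2, CELF2, NEDD4, ST13, ATP6V1A, OCRL and PTX3 among the rises. Of these 10, CELF2 and ATP6V1A lost the call in the fit of the 6 control libraries alone. The rest of the 72 called genes, such as PON2, CD46, SIK2 and STRN, were not followed. Whether their calls hold with a library left out is therefore not known.

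**Figure D1:**
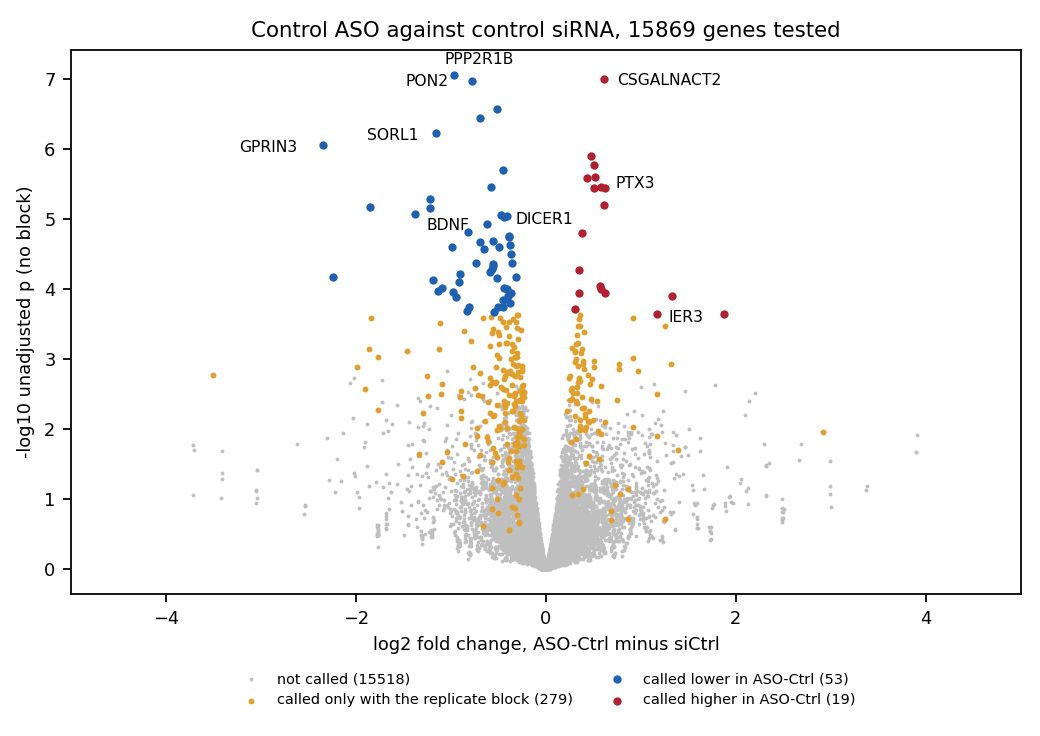
Each point is 1 of 15869 genes, with the log2 fold change of ASO-Ctrl minus siCtrl on the x axis and -log10 of the unadjusted p without the block on the y axis; colours mark the 53 called lower, the 19 called higher and the 279 called only with the replicate block. The called falls outnumber the called rises and reach further from 0, with GPRIN3 at -2.34.

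Among genes with a mean of at least 5 CPM in either group, GPRIN3 fell most. It belongs to a small family of G protein-regulated inducers of neurite outgrowth (chromosome 4, 89236383 to 89307800, hg38, as in the deposited files). Its level was 26.8, 28.2 and 49.0 CPM in siCtrl and 6.43, 5.78 and 8.69 CPM in ASO-Ctrl. The log2 fold change was -2.34 (SE 0.32, edgeR adjusted p = 0.00201), and the highest ASO-Ctrl library stood far below the lowest siCtrl library. With the ASOs labelled as directed at NEAT1, GPRIN3 was at 5.97 ± 0.756 CPM (SD, n = 3) and 8.17 ± 1.26 CPM (SD, n = 3). Among the siRNA groups its mean ranged widely, from 6.64 CPM with siNONO-3 and 16.7 CPM with siNONO-4 to 68.6 CPM with siSFPQ-2 and 63.5 CPM with siSFPQ-3. The siRNAs against NONO thus stood below siCtrl and those against SFPQ above it.

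Other falls included genes with roles in neurons and secretion. BDNF, the neurotrophin (chromosome 11, 27654893 to 27722058), was at 13.8, 9.20 and 18.9 CPM in siCtrl and 6.78, 4.10 and 5.62 CPM in ASO-Ctrl. The log2 fold change was -1.38 (SE 0.24, edgeR adjusted p = 0.0062). The call was lost without ASO-Ctrl replicate 2 (adjusted p = 0.104), without siCtrl replicate 3 and in the fit of the 6 control libraries alone. BDNF overlaps its antisense gene BDNF-AS, and the strand setting of the counting is not given in the sources used here, so reads of the pair cannot be told apart. SORL1, a sorting receptor that moves cargo between endosomes and the Golgi (chromosome 11, 121452314 to 121633763), was at 62.6, 58.1 and 83.3 CPM in siCtrl and 30.9, 27.4 and 33.7 CPM in ASO-Ctrl. It fell by 1.16 on the log2 scale (SE 0.17, edgeR adjusted p = 0.00156), and the groups were far apart. ZCCHC12, a zinc finger transcriptional coactivator, fell by 1.22 from 9.65, 11.96 and 12.02 CPM to 3.82, 5.72 and 4.80 CPM. AKAP5, which anchors protein kinase A at membranes, fell by 0.92 from 10.3, 12.5 and 15.9 CPM to 5.65, 6.25 and 8.79 CPM. ZCCHC12 lost its call only without ASO-Ctrl replicate 1, whereas AKAP5 kept its call in 2 of the 6 fits (adjusted p up to 0.247) and lost it in the fit of the 6 control libraries alone.

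Some of the fallen genes encode cell surface proteins. CD55, which protects cells from complement by breaking up its convertases, was at 113, 115 and 111 CPM in siCtrl and 50.6, 47.9 and 56.2 CPM in ASO-Ctrl. Its log2 fold change was -1.13 (SE 0.23, edgeR adjusted p = 0.0303). The groups were far apart and tight, yet the call was lost in each of the 6 fits that left out a library (adjusted p from 0.0826 to 0.224). With the block the adjusted p was 0.00692. CD46, a complement cofactor, fell by 0.66 from 544, 458 and 587 CPM to 379, 309 and 319 CPM. ITGA1, the collagen-binding integrin alpha-1 chain, fell by 1.10 from 22.2, 14.4 and 17.8 CPM to 9.04, 7.33 and 9.30 CPM; the gene overlaps PELO, and its call held in only 1 of the 6 fits. LRP4, a low-density lipoprotein receptor-related protein of the neuromuscular junction, fell by 0.55 from 15.5, 14.8 and 18.2 CPM to 11.99, 9.95 and 11.5 CPM. Its edgeR adjusted p of 0.0483 was near the threshold, and it was not among the genes followed through the 6 fits.

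Others encode signalling enzymes or their partners. PPP2R1B, a scaffold subunit of protein phosphatase 2A (chromosome 11, 111726908 to 111766389), was at 465, 436 and 459 CPM in siCtrl and 258, 224 and 213 CPM in ASO-Ctrl. The log2 fold change was -0.97 (SE 0.13, edgeR adjusted p = 0.000574), and it kept its call in all 6 fits (adjusted p from 0.00236 to 0.00832). The gene overlaps SIK2, a salt-inducible kinase, which fell by 0.69 from 243, 217 and 227 CPM to 147, 143 and 135 CPM, so counts of this pair are uncertain. STRN, or striatin, another partner of protein phosphatase 2A, fell by 0.58 from 288, 299 and 284 CPM to 204, 190 and 187 CPM. PDE3A, which hydrolyses cyclic AMP and cyclic GMP, fell by 0.99 from 138, 118 and 161 CPM to 76.7, 54.7 and 78.8 CPM. Its call was lost without ASO-Ctrl replicate 2 (adjusted p = 0.124) or siCtrl replicate 3. FOXO1, a transcription factor downstream of insulin signalling, fell by 0.59 from 60.3, 49.0 and 56.5 CPM to 39.3, 34.0 and 37.0 CPM. CDK6, a cyclin-dependent kinase of the G1 phase, fell by 0.41 from 223, 239 and 265 CPM to 178, 182 and 189 CPM. In each of these the highest ASO-Ctrl library was below the lowest siCtrl library.

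Some encode metabolic enzymes. PON2, a lactonase of the paraoxonase family, was at 85.8, 81.5 and 87.1 CPM in siCtrl and 54.1, 46.7 and 48.1 CPM in ASO-Ctrl. Its log2 fold change was -0.77 (SE 0.11, edgeR adjusted p = 0.000574). BCKDHB, a subunit of the branched-chain keto acid dehydrogenase, fell by 0.56, from 73.0, 60.8 and 72.2 CPM to 46.4, 46.8 and 46.5 CPM. MAT2B, the regulatory subunit of methionine adenosyltransferase, fell by 0.35 from 162, 179 and 178 CPM to 129, 143 and 135 CPM. The changes of MAT2B and CDK6 were small, with replicates close together and no overlap between the controls.

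The other large falls were KBTBD11, TENT5A, GLIPR1, MYLIP and BEND7. KBTBD11, a Kelch and BTB domain protein (chromosome 8, 1973677 to 2006936), fell by 1.22 from 36.6, 27.3 and 50.9 CPM to 17.6, 12.9 and 19.4 CPM; it overlaps an antisense gene. TENT5A, a noncanonical poly(A) polymerase, fell by 0.98 from 68.0, 50.2 and 52.3 CPM to 34.6, 27.6 and 24.1 CPM. MYLIP, a ubiquitin ligase that targets the low-density lipoprotein receptor, fell by 0.91 from 28.9, 23.1 and 24.8 CPM to 16.4, 13.5 and 10.9 CPM. GLIPR1 fell by 0.95 and BEND7 by 0.83. Groups did not overlap in any of the 5, and none kept its call in all 6 fits: TENT5A and BEND7 kept it in none, GLIPR1 in 1, MYLIP in 2 and KBTBD11 in 5. GLIPR1 and KBTBD11 also lost it in the fit of the 6 control libraries alone. Below the 5 CPM limit, 2 genes fell further than most: ADAMTS6, a metalloprotease, from 4.11, 5.42 and 4.30 CPM to 1.13, 1.01 and 1.74 CPM (158 against 45 reads), and IPCEF1, from 1.52, 1.94 and 1.09 CPM to 0.174, 0.336 and 0.409 CPM (51 against 11 reads).

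**Figure D2:**
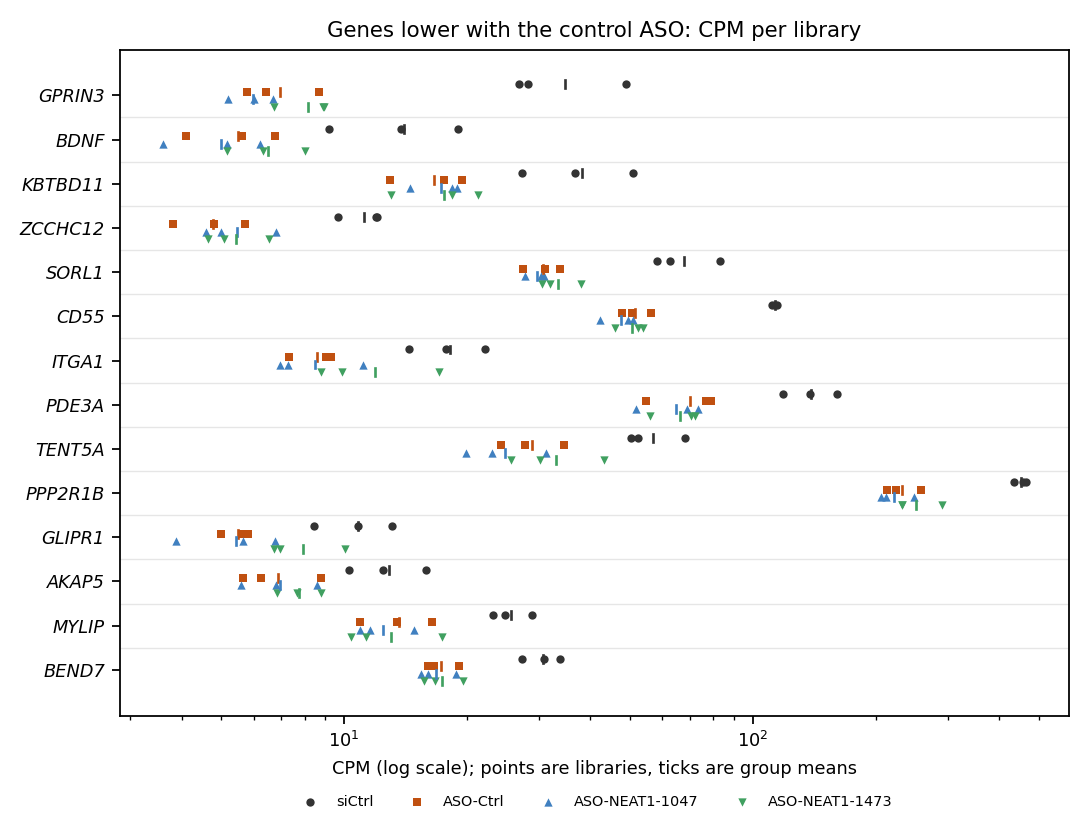
CPM on a log axis for 14 of the 15 largest called falls with a mean of at least 5 CPM; points are libraries of siCtrl, ASO-Ctrl, ASO-NEAT1-1047 and ASO-NEAT1-1473, and ticks are group means. For each gene the 3 siCtrl points lie to the right of the 3 ASO-Ctrl points, and the points of the NEAT1 ASOs lie near those of ASO-Ctrl.

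DICER1 was the only fallen member of a list of 28 genes of RNA interference. It encodes the ribonuclease that cuts precursors into microRNAs and long double-stranded RNA into siRNAs. It was at 241, 269 and 264 CPM in siCtrl and 194, 186 and 191 CPM in ASO-Ctrl, a log2 fold change of -0.44 (SE 0.08, edgeR adjusted p = 0.00627). The call was lost without ASO-Ctrl replicate 2 (adjusted p = 0.104), siCtrl replicate 2 or siCtrl replicate 3, and the gene overlaps DICER1-AS1. The means with the NEAT1 ASOs were 189 and 186 CPM, those with the NONO siRNAs 238 and 206 CPM, and those with the SFPQ siRNAs 340 and 303 CPM. The list, which holds the Argonaute and TNRC6 genes, DROSHA and XPO5, had a median log2 fold change of -0.09, with 21 of 28 members below 0. TNRC6C, a scaffold of silencing complexes, was not called at -0.33 (adjusted p = 0.273).

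Most of the called rises were under 2-fold. CSGALNACT2, which starts chondroitin sulfate chains (chromosome 10, 43138445 to 43185302), was at 30.8, 32.6 and 31.0 CPM in siCtrl and 46.6, 48.9 and 48.6 CPM in ASO-Ctrl. It rose by 0.61 (SE 0.09, edgeR adjusted p = 0.000574), and the libraries of each control lay within a few CPM of each other. GNPNAT1, which acetylates glucosamine phosphate on the way to UDP-GlcNAc, rose by 0.61 from 73.7, 74.0 and 52.5 CPM to 97.0, 112 and 95.8 CPM. UAP1, a later enzyme of the same route, went the other way and fell by 0.39 from 148, 129 and 148 CPM to 109, 106 and 110.1 CPM. PTX3, a secreted pattern recognition protein (chromosome 3, 157436850 to 157443633), was at 472, 474 and 395 CPM in siCtrl and 689, 700.0 and 667 CPM in ASO-Ctrl. It rose by 0.62 (SE 0.11, edgeR adjusted p = 0.0036) and overlaps VEPH1.

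Some of the risen genes act in membrane traffic and acidification. ATP6V1A, the catalytic subunit of the proton pump of lysosomes and endosomes, was at 161, 141 and 121 CPM in siCtrl and 203, 188 and 215 CPM in ASO-Ctrl, a rise of 0.52 (SE 0.09, edgeR adjusted p = 0.00346). OCRL, a phosphoinositide phosphatase of endosomes and the Golgi, rose by 0.51 from 45.6, 46.9 and 44.3 CPM to 65.7, 59.0 and 69.6 CPM. ACBD3, a Golgi scaffold protein, rose by 0.38 from 93.4, 95.5 and 81.1 CPM to 111, 119 and 121 CPM. NEDD4, a ubiquitin ligase that marks membrane proteins for endocytosis, rose by 0.51 from 61.5, 70.8 and 61.0 CPM to 93.6, 86.1 and 95.6 CPM. Of these, ATP6V1A, OCRL and NEDD4 kept their calls in all 6 fits that left out a library, and ACBD3 lost its call without ASO-Ctrl replicate 2 or siCtrl replicate 3. ATP6V1A and ACBD3 also lost their calls in the fit of the 6 control libraries alone.

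The other rises have varied roles. ST13, a co-chaperone of Hsp70, rose by 0.47 from 230, 235 and 198 CPM to 297, 304 and 317 CPM. CELF2, an RNA-binding regulator of splicing, rose by 0.43 from 634, 614 and 612 CPM to 777, 815 and 912 CPM. SSU72, a phosphatase of the RNA polymerase II tail, rose by 0.58 from 65.1, 54.9 and 51.3 CPM to 87.2, 88.4 and 79.4 CPM. SMIM15 (0.63) and C19orf12 (0.57) rose by similar amounts. GRB2, an adaptor of receptor tyrosine kinases, and CAMSAP2, which caps microtubule minus ends, each rose by 0.35, and RHOA, the small GTPase, by 0.31. In SMIM15, GNPNAT1, ST13, ACBD3, CAMSAP2, RHOA, CELF2, SSU72, PTX3, ATP6V1A, OCRL and NEDD4 the third siCtrl library was the lowest of the siCtrl libraries. For OCRL, NEDD4 and CELF2 it was lower by little. Without it SMIM15, GNPNAT1, SSU72, ACBD3, C19orf12, GRB2, CAMSAP2 and RHOA all lost their calls (adjusted p up to 0.354, for RHOA). Most of these calls were lost without other libraries too: RHOA and CAMSAP2 kept theirs in 1 of the 6 fits, GRB2 and C19orf12 in 2, SMIM15 in 3, GNPNAT1 and ACBD3 in 4 and SSU72 in 5. All of these but SSU72 also lost the call in the fit of the 6 control libraries alone, as did CELF2.

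**Figure D3:**
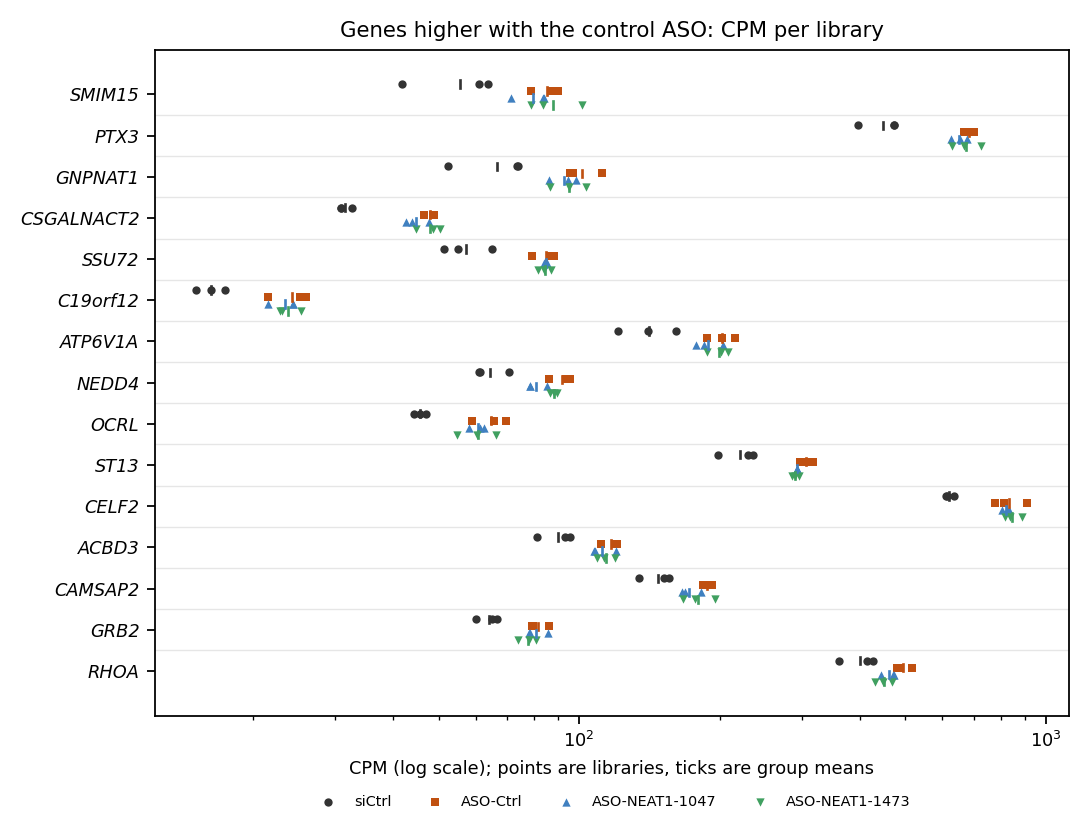
CPM on a log axis for the 15 largest called rises with a mean of at least 5 CPM; points are libraries of siCtrl, ASO-Ctrl, ASO-NEAT1-1047 and ASO-NEAT1-1473, and ticks are group means. For each gene the ASO-Ctrl points lie to the right of the siCtrl points, with PTX3 moving from a mean of 447 to 685 CPM.

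Among the genes added by the block were several that varied with the replicate number in both controls. STC1, the secreted hormone stanniocalcin, was at 253, 189 and 111 CPM in siCtrl and 105, 68.7 and 44.2 CPM in ASO-Ctrl. Each ASO-Ctrl library was below the siCtrl library of its own number, and replicate 3 was the lowest in both groups. Without the block its log2 fold change of -1.34 had an edgeR adjusted p of 0.49, and with the block it was -1.35 with an adjusted p of 0.0317. UTS2, which encodes the vasoactive peptide urotensin 2 and overlaps PER3, was at 157, 192 and 246 CPM in siCtrl and 57.6, 46.8 and 71.4 CPM in ASO-Ctrl (-1.76, edgeR adjusted p = 0.00486 with the block and 0.119 without). PCSK1, a protease that processes prohormones, was at 20.3, 19.3 and 12.97 CPM in siCtrl and 8.34, 6.12 and 4.29 CPM in ASO-Ctrl, and THBS1, or thrombospondin, at 46.2, 63.3 and 119 CPM and 30.6, 29.5 and 52.5 CPM. DST, a large cytoskeletal linker, was at 324, 288 and 263 CPM in siCtrl and 173, 120.0 and 113 CPM in ASO-Ctrl. MYB, a transcription factor, was at 18.3, 12.4 and 6.19 CPM and then 7.30, 6.99 and 3.78 CPM, so that the groups overlapped without regard to the number.

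MOBP (-1.25 with the block), BCO1 (-1.24), TMEM154 (-1.12) and PLD1 (-1.12) completed the 10 largest falls of this kind. Among the rises called only with the block, LINC02154, a noncoding RNA on the X chromosome, was at 20.6, 34.2 and 32.4 CPM in siCtrl and 40.3, 60.8 and 96.3 CPM in ASO-Ctrl. It rose by 1.14 with the block (edgeR adjusted p = 5.26e-05, against 0.397 without). COL1A1, the main chain of fibrillar collagen, was at 10.4, 16.5 and 13.7 CPM in siCtrl and 21.7, 25.3 and 29.3 CPM in ASO-Ctrl (0.93 with the block, edgeR adjusted p = 0.0024). TDGF1, or cripto, a Nodal co-receptor, was at 12.9, 17.4 and 15.7 CPM and 21.6, 31.1 and 34.1 CPM (0.91, edgeR adjusted p = 0.000648). EGFL6 was at 3.49, 12.9 and 10.7 CPM in siCtrl and 6.34, 16.6 and 26.8 CPM in ASO-Ctrl, so that the groups overlapped while each pair of equal number rose. The remaining rises of this kind were PRR9 (1.29), MUC4 (0.94), TSPAN18 (0.82), FCGRT (0.78), HDAC5 (0.77) and KCNK6 (0.77), all at low levels.

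Gene groups that foreign nucleic acids are known to engage showed few or no called members. Over all 15869 genes tested, 1266 had an unadjusted edgeR p under 0.05 without the block. That is the background for the counts of such genes in the lists. None of 28 interferon-stimulated genes was called with edgeR, with or without the block or with DESeq2, and 1 had an unadjusted p under 0.05. Their median log2 fold change was -0.01 and their range -0.38 to 0.60. IFI44L, an abundant member of the list, was at 385, 330.4 and 413 CPM in siCtrl and 319, 258 and 345 CPM in ASO-Ctrl (95% interval of the log2 difference -0.57 to -0.02, edgeR adjusted p = 0.573), and the groups overlapped. Of 15 nucleic acid sensors none was called and none had an unadjusted p under 0.05. IFIH1, a cytosolic sensor of double-stranded RNA, was at 1.79, 2.45 and 3.72 CPM and 2.78, 1.68 and 2.15 CPM. Of 38 genes of RNase H and oligonucleotide-binding proteins, none was called by these tests or had an unadjusted p under 0.05; the list had a median of 0.02. XRN1, the exonuclease that degrades cleaved RNA from its 5′ end, was at 97.1, 101 and 106 CPM in siCtrl and 108, 103 and 133 CPM in ASO-Ctrl.

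Of 17 NF-kB target genes, IER3, an early response gene that modulates survival, rose. It was at 2.06, 2.35 and 1.68 CPM in siCtrl and 5.65, 4.24 and 3.68 CPM in ASO-Ctrl, from 69 and 164 reads in all (1.17, SE 0.28, edgeR adjusted p = 0.04997). The value stood at the threshold, and the call was lost without 5 of the 6 libraries in turn (adjusted p up to 0.297), with DESeq2-type scaling factors, in the fit of the 6 control libraries and without the siSFPQ libraries. TNFAIP2 was added by the block (0.39, adjusted p = 0.0024), while ICAM1 was not called (0.62, adjusted p = 0.368; 0.0934 with the block). The list's median was -0.04.

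Among 30 immediate early genes, which respond to growth factor and calcium signals, 2 fell and none rose. DUSP4, a phosphatase of MAP kinases, was at 75.2, 84.7 and 82.9 CPM in siCtrl and 50.1, 48.1 and 47.4 CPM in ASO-Ctrl (-0.74, SE 0.15, edgeR adjusted p = 0.0179). FOSL2, a subunit of the AP-1 transcription factor, was at 149, 137 and 128 CPM in siCtrl and 103, 103 and 83.2 CPM in ASO-Ctrl (-0.52, SE 0.11, edgeR adjusted p = 0.0233). DUSP4 kept its call in 1 of the 6 fits and FOSL2 in none. SPRY2, an inhibitor of receptor tyrosine kinase signalling, fell with the block (-0.68, adjusted p = 0.0368). EGR1 was not called and varied 2-fold or more within each control, at 6.70, 8.28 and 16.3 CPM and 9.38, 13.7 and 20.1 CPM. The median of the list was 0.00.

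Most cholesterol synthesis genes had values slightly below 0. None of 27 was called without the block (4 had an unadjusted p under 0.05, and DESeq2 called none), 24 of 27 lay below 0, and the median was -0.13. With the block MSMO1, a sterol oxidase, fell by 0.46 (adjusted p = 0.00357) from 44.0, 39.9 and 31.8 CPM to 34.8, 27.6 and 22.1 CPM. Replicate 1 was the highest and replicate 3 the lowest library of each control, and the ASO-Ctrl library was below the siCtrl library of the same number. Integrated stress response genes leaned the other way, with 23 of 30 above 0 and a median of 0.16, but none was called with or without the block and none had an unadjusted p under 0.05.

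Values on one side of 0 were also common in other lists. Of 77 cytosolic ribosomal protein genes, 69 lay above 0, with a median of 0.07, and RPL22 was called with the block (0.26, adjusted p = 0.0275). Of 38 core and linker histone genes, 28 lay below 0, with a median of -0.28; many are near-identical copies at low counts, and H2AC6 rose with the block (0.48, adjusted p = 0.0178). The 15 mitochondrially encoded genes had a median of 0.13 and no call (6 at an unadjusted p under 0.05, beside 1266 of all 15869 genes). MT-RNR1 was at 3764, 4564 and 4932 CPM in siCtrl and 2150.0, 2173 and 7399 CPM in ASO-Ctrl, so 1 library set its group mean. The 6 metallothionein and zinc response genes tested had a median of 0.59 with no call (2 at an unadjusted p under 0.05); MT1X, at 0.268, 0.511 and 0.729 CPM and 0.348, 0.807 and 3.37 CPM, was high in a single library. Over all 28 lists, 5 of 847 tested genes were called without the block (0.59%, beside 0.454% of all genes) and 22 with it (2.6%, beside 2.21%), so the share among the lists was near the background. S-phase genes (44 tested, median -0.03), mitosis genes (39, -0.02), p53 target genes (33, 0.05), heat shock genes (19, 0.01) and paraspeckle protein genes (36, 0.02) had no called member with edgeR or DESeq2 without the block (0, 1, 2, 1 and 2 at an unadjusted p under 0.05). With the block FBXW7, of the p53 list, fell (-0.29, adjusted p = 0.037), and no other member of these 5 lists was called.

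**Figure D4:**
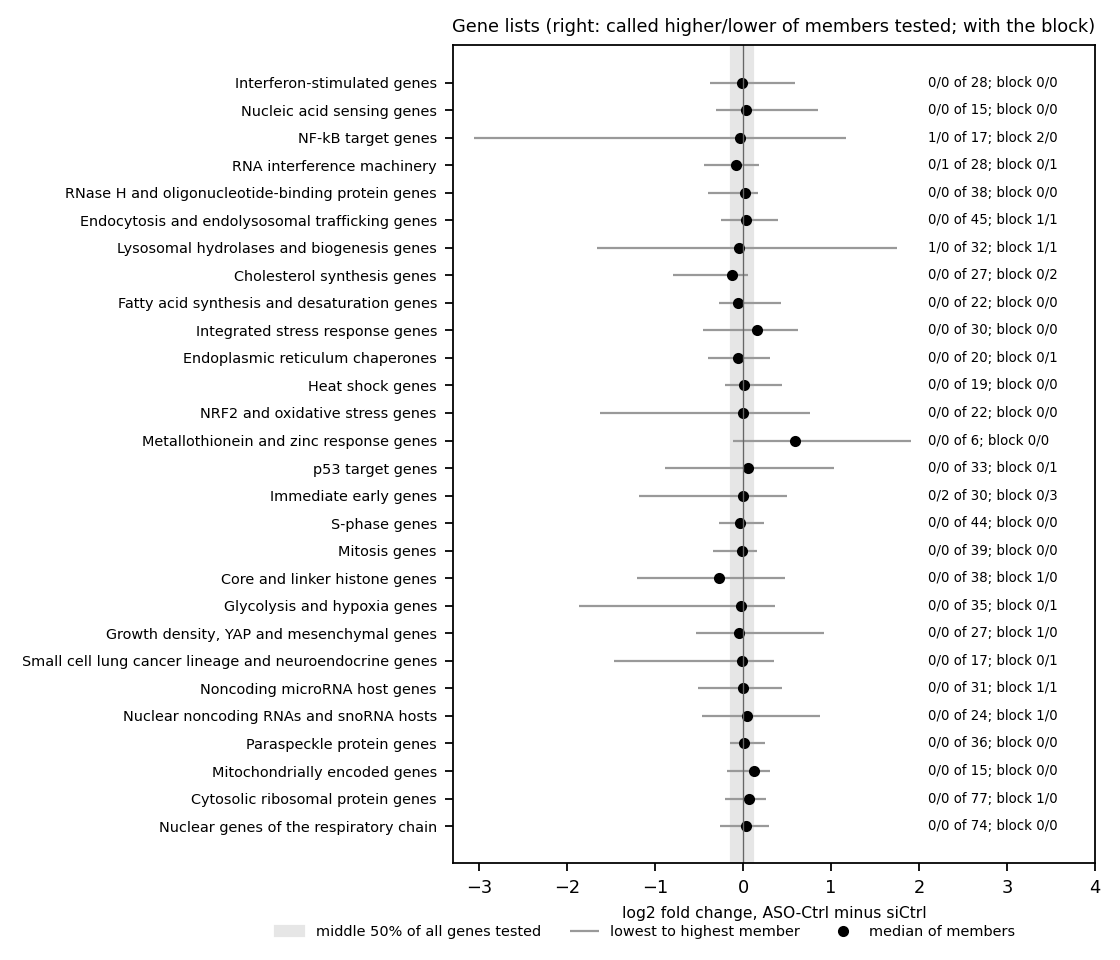
Log2 fold changes of ASO-Ctrl minus siCtrl for the 28 gene lists: points are medians of the members tested, lines run from the lowest to the highest member, the grey band holds the middle 50% of all genes tested, and figures on the right give members called higher and lower without and with the block. Most medians lie within the band; the exceptions are integrated stress response (0.16), metallothionein (0.59), histone (-0.28) and mitochondrially encoded genes (0.13).

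The ASOs labelled as directed at NEAT1 gave levels near those of ASO-Ctrl in the genes that separated the controls. NEAT1 itself was at 244, 331 and 317 CPM with ASO-NEAT1-1047 and 181, 204.5 and 232 CPM with ASO-NEAT1-1473, beside 216, 289 and 387 CPM with ASO-Ctrl. The libraries of ASO-NEAT1-1047 lay within the range of ASO-Ctrl, and those of ASO-NEAT1-1473 overlapped its lower end. The mean of both minus ASO-Ctrl was -0.26 (95% interval -0.69 to 0.17, edgeR adjusted p = 0.9999), and ASO-NEAT1-1473 minus siCtrl was -0.59 (unadjusted p = 0.0245, edgeR adjusted p = 0.488). A lower NEAT1 level was therefore not called in these counts, and the groups are called NEAT1 ASOs by their labels only. These comparisons share the siCtrl or the ASO-Ctrl libraries with the first, so they are given side by side and are no separate evidence. Against siCtrl, SORL1 was at -1.16 with ASO-Ctrl, -1.21 with ASO-NEAT1-1047 and -1.03 with ASO-NEAT1-1473. For PPP2R1B the values were -0.97, -1.03 and -0.85, for CD55 -1.13, -1.25 and -1.16, and for PDE3A -0.99, -1.11 and -1.07. CSGALNACT2 was at 0.61, 0.51 and 0.61, and CELF2 at 0.43, 0.40 and 0.45. GLIPR1 was at -0.95 and -0.97 but -0.44 with ASO-NEAT1-1473, and ITGA1 at -1.10, -1.11 and -0.62. Over all genes, 138 (0.87%) were called for ASO-NEAT1-1047 against siCtrl, 34 higher (0.214%) and 104 lower (0.655%). For ASO-NEAT1-1473 there were 55 (0.347%), 16 higher (0.101%) and 39 lower (0.246%). The mean of the 3 ASO groups against siCtrl called 266 (1.68%), 69 higher (0.435%) and 197 lower (1.24%). With the block it called 913 (5.75%), 271 higher (1.71%) and 642 lower (4.05%). Upper quartile scaling gave 94 higher and 138 lower without the block. Between the mean of the NEAT1 ASOs and ASO-Ctrl edgeR called 0 of 15869 genes, and 353 had an unadjusted p under 0.05. For the 72 genes that difference ran from -0.33 to 0.88, with a median size of 0.07. Over all 15869 genes its median was 0.002 and its quartiles were -0.068 and 0.097, so levels near those of ASO-Ctrl were not particular to the 72 genes.

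Group means with the siRNAs against NONO and SFPQ are set beside the controls as description only, since their comparisons share siCtrl. Of the 53 falls, 47 lay below siCtrl with siNONO-3 and 46 with siNONO-4, and all 19 rises lay above it with each. With the mean of both, median log2 differences from siCtrl were -0.52 for falls and 0.59 for rises, beside -0.58 and 0.57 with ASO-Ctrl. Over all 15869 genes tested, the NONO siRNA mean minus siCtrl had a median of -0.004 and quartiles of -0.217 and 0.188. The falls and rises were picked by their difference from siCtrl, so a lean to the same side is partly built in. In most of these genes the NONO siRNA means thus lay on the same side of siCtrl as ASO-Ctrl, which is no separate result about them. With both SFPQ siRNAs, 20 falls lay below siCtrl and 15 rises above it. PPP2R1B was at 453 CPM with siCtrl and 231 CPM with ASO-Ctrl, and at 257 and 301 CPM with siNONO-3 and siNONO-4. CSGALNACT2 was at 31.5 CPM with siCtrl and 48.0 CPM with ASO-Ctrl, and at 45.3 and 49.8 CPM with the NONO siRNAs. ATP6V1A was at 141 and 202 CPM in the controls and 211 and 207 CPM with the NONO siRNAs, and SSU72 at 57.1, 85.0, 99.1 and 84.4 CPM. SORL1 differed between the siRNAs against NONO, with 36.4 and 66.0 CPM beside 68.0 CPM in siCtrl. In CD55 the SFPQ siRNAs gave 708 and 406 CPM, above both controls.

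**Figure D5:**
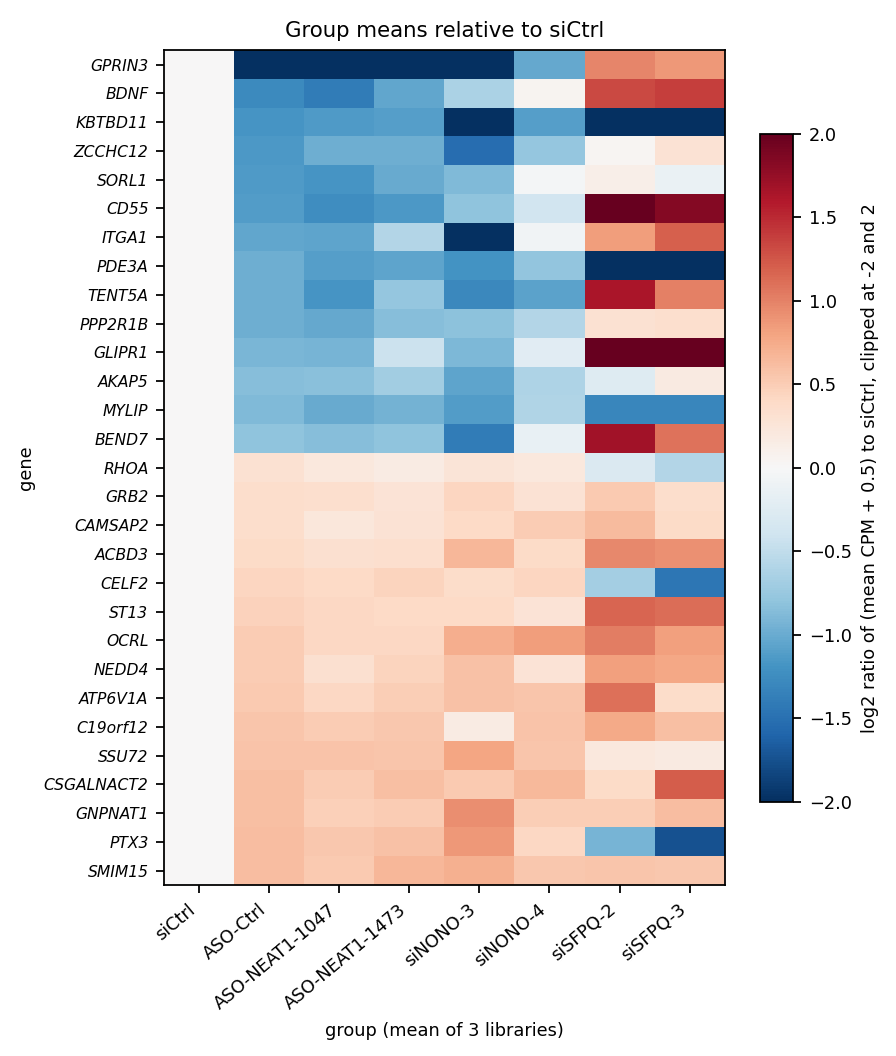
Log2 ratio of each group's mean (CPM + 0.5) to that of siCtrl for 14 of the 15 largest called falls and the 15 largest called rises (rows) in the 8 groups (columns), clipped at -2 and 2. The ASO columns resemble each other, most rows of the NONO siRNAs lie on the same side of siCtrl as the ASO columns, and the SFPQ siRNAs differ in both directions.

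A comparison of the kinds of reagent that shares no library with the controls is that of the NEAT1 ASOs with the NONO siRNAs; it was added after the data were seen, and the loss of NONO cannot be told apart from the kind of reagent there. It called 1947 genes higher (12.3%) and 1903 lower (12%) of 15869. Of the 53 genes that were lower with ASO-Ctrl, 20 (37.7%) were lower with the NEAT1 ASOs and 7 (13.2%) were higher. Those lower in both included BDNF (-1.01, adjusted p = 0.000192), SORL1 (-0.65, adjusted p = 0.00039), CD55 (-0.61, adjusted p = 0.0108), PON2 (-0.27, adjusted p = 0.0129), DUSP4 (-0.32, adjusted p = 0.0283) and DICER1 (-0.24, adjusted p = 0.00296). GPRIN3 (-0.60, adjusted p = 0.0909) and PPP2R1B (-0.24, adjusted p = 0.0584) were not called there. KBTBD11 (0.76, adjusted p = 0.00122), FOSL2 (0.58, adjusted p = 5.24e-06) and SIK2 (0.24, adjusted p = 0.0162) were higher with the NEAT1 ASOs. Of the 19 genes that were higher with ASO-Ctrl, edgeR called 0 higher there (1 had an unadjusted p under 0.05) and 6 (31.6%) lower. The rises of CSGALNACT2 (-0.04), PTX3 (-0.07), ATP6V1A (-0.11) and SSU72 (-0.11) had no called counterpart, and OCRL (-0.38, adjusted p = 4.93e-05) and IER3 (-1.16, adjusted p = 1.44e-05) were lower.

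Promoters were searched for sequence motifs because BDNF, FOSL2 and DUSP4 are textbook targets of factors that bind the cyclic AMP response element, TGACGTCA, and the AP-1 site, TGANTCA. RefSeq promoters (GRCh38.p14, 250 bases before to 50 after each start, both strands) matched 44 of the 53 fallen and 14 of the 19 risen genes. TGACGTCA was in 3 of 68 promoters of fallen genes (4.41%), 0 of 27 of risen genes and 459 of 15968 of all tested genes (2.87%). TGANTCA was in 4.41%, 11.1% and 5.43% of them. The shares rest on a few promoters and are descriptions only. No promoter found to hold TGACGTCA among fallen genes belonged to BDNF, FOSL2 or DUSP4. Whether these genes were among the 44 matched is not given here, so their promoters may not have been searched. The 3 promoters of fallen genes that hold TGACGTCA are printed in full, 5′ to 3′ on the gene's strand, with the motif in capitals. They belong to ADAMTS6 (chr5:65481871-65482170, minus strand), AHI1 (chr6:135497691-135497990, minus strand; a protein of the primary cilium that fell by 0.49) and GABARAPL1 (chr12:10212627-10212926, plus strand; an autophagy protein of the ATG8 family that fell by 0.81).
ADAMTS6: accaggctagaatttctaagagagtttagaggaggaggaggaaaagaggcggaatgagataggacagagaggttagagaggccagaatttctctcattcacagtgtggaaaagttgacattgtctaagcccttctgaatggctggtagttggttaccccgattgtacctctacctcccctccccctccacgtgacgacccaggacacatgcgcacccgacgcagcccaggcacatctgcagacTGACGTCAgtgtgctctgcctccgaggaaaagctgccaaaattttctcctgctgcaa
AHI1: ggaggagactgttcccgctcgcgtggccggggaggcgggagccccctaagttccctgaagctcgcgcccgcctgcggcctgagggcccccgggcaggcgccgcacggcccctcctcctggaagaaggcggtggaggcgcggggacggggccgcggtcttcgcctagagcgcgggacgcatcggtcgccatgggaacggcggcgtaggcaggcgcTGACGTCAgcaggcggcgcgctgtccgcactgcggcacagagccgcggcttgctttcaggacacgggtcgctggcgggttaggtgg
GABARAPL1: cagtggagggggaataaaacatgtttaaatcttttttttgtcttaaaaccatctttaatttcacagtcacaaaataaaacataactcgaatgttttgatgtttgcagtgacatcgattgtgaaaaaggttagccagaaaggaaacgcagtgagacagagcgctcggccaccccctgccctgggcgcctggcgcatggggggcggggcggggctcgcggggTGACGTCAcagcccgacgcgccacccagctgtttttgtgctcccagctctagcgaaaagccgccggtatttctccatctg
The motif began at base 244 of 300 in ADAMTS6, 215 in AHI1 and 221 in GABARAPL1, that is 7, 36 and 30 bases before the annotated start. AHI1 went from 193, 205 and 230 CPM in siCtrl to 156, 136 and 156 CPM in ASO-Ctrl, and GABARAPL1 from 9.38, 9.31 and 10.7 CPM to 5.91, 4.51 and 6.54 CPM.

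Measures over whole libraries did not separate the controls by more than the design can test. The share of counts in the 100 most abundant genes was 22.8% ± 0.503 (SD, n = 3) and 23.1% ± 0.656 (SD, n = 3) (exact permutation p = 0.5). Genes spanning over 100 kb, relative to all others, lay 0.06 lower on the log2 scale in ASO-Ctrl, at -0.07, -0.09 and -0.02 in its 3 libraries. The siCtrl libraries are the reference of that measure and lie near 0 by construction, so its exact permutation p of 0.1, the smallest possible, leans low.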

How the data were processed

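Poly(A) RNA libraries of 24 samples were used, 6 of them the controls compared here. Build hg38 and the tools cutadapt 4.2, STAR 2.7.5a, Subread 2.0.3 (featureCounts) and DESeq2 1.38.1 are named in the submitters' processing notes. The authors deposited unnormalized whole-number counts for 60605 Ensembl genes, per the file headers from featureCounts. For the annotation release, strand setting and handling of multi-mapped reads, the setting is not given in the sources used here. All samples' groups came from the labels.

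From the deposited counts, edgeR 4.0.16 in R 4.3.3 was run with TMM factors, filtering by group, a robust quasi-likelihood fit of the 8 groups and Benjamini-Hochberg adjustment over 15869 genes (threshold 0.05), so all groups shared 1 estimate of the spread. Unless another tool is named, adjusted p-values are edgeR's. Values called log2 fold change or written as rises and falls are ASO-Ctrl minus siCtrl, and those of single libraries are CPM. Intervals and low counts cover counting and replicate error as sampled; no molecular identifiers are mentioned. Single values per library were compared by exact permutation. The fits were tested on simulated data.

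Replicate numbers come from the labels, which do not say what they mark. Deviations of same-numbered siCtrl and ASO-Ctrl libraries from their group means correlated across genes at 0.33, 0.16 and 0.38, all above 0.1, so the numbers were taken to pair the samples and blocked values are printed where they change a call or a count. In the fit of all 24 libraries the block gives all 8 groups the same replicate effect. Whether the other groups share that effect was not tested. The named genes were SFPQ, NONO, PSPC1 and NEAT1, the 15 largest called rises and falls at 5 CPM or more, up to 2 members of each list per direction, and the 10 largest per direction called only with the block; a few genes that the rule names are not reported here. The members, the 28 gene lists and the rule were chosen with earlier results of these data known. Gene symbols came from an identifier table (60463 matched) and overlaps from the coordinates in the deposited files. Alternatives were other scaling factors, filters, DESeq2 1.42.0, the block, subsets of the libraries and leaving out each control library.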

Additional observations from a re-analysis of the deposited data

How the results depend on the processing

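The 72 calls became 64 with DESeq2-type size factors in edgeR, 77 with upper quartile factors, 72 with a stricter filter (at least 1 CPM in at least 6 libraries) and 65 without the siSFPQ libraries. They became 153 with no filter on low counts, 112 with DESeq2, 351 with the replicate block, 42 in the fit of the 6 control libraries and 1007 in that fit with the replicate block; the cause of these moves was not tested. Leaving out 1 library at a time gave 21 to 53. Called members over the gene lists numbered 5, and 14 with no filter, 22 with the replicate block, 75 with the block in the 6 control libraries and 1 to 7 with a library left out. The mean of the 3 ASO groups against siCtrl gave 266 calls, 913 with the replicate block and 92 to 198 with a library left out. The difference for genes over 100 kb was -0.06, and -0.07 for genes over 300 kb and -0.05 for exonic lengths over 5 kb. No named gene changed direction while called. Of the 34 called genes followed, DESeq2 and both blocked fits kept all 34, while 15 lost the call in the fit of the 6 control libraries, 4 with DESeq2-type size factors, 2 with upper quartile factors and 11 to 21 with a library left out. Genes with few reads are limited by depth: 3 counts correspond to 0.202 to 0.307 CPM in these libraries.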

Other observations

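A further look at gene groups outside the main account found single members called with the replicate block. Of 31 noncoding microRNA host genes, none was called by edgeR without the block or by DESeq2 (3 had an unadjusted p under 0.05), and 1 rose and 1 fell with the block. H19, an imprinted noncoding RNA that hosts a microRNA, was at 11.5, 14.5 and 14.8 CPM in siCtrl and 17.99, 19.5 and 17.9 CPM in ASO-Ctrl, a rise of 0.45 with the block (adjusted p = 0.042). MIR99AHG, the host of a let-7 and miR-99 family cluster, was at 33.7, 22.4 and 33.0 CPM and 20.7, 17.6 and 24.7 CPM, a fall of 0.51 with the block (adjusted p = 0.0284). OIP5-AS1, a cytoplasmic noncoding RNA, was at 202, 213 and 200 CPM in siCtrl and 237, 245 and 245 CPM in ASO-Ctrl, and it rose by 0.24 with the block (adjusted p = 0.037).

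Of 45 genes of endocytosis and endolysosomal traffic, VPS4B, an ATPase that recycles the ESCRT machinery, rose with the block from 64.4, 67.5 and 57.3 CPM to 80.3, 78.3 and 77.4 CPM (0.32, adjusted p = 0.0171). AP2B1, a subunit of the clathrin adaptor at the plasma membrane, fell from 255, 244 and 257 CPM to 217, 208 and 211 CPM (-0.25, adjusted p = 0.0183). Neither was called without the block, and the controls did not overlap in either gene. PDIA3, a disulfide isomerase of the endoplasmic reticulum, fell with the block from 689, 617 and 544 CPM to 555, 517 and 475 CPM (-0.25, adjusted p = 0.0413), with overlapping groups.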
